A study of Mus musculus with 4 samples.

Results

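The splicing factors and small nuclear ribonucleoprotein (snRNP) proteins described here are the genes whose symbols begin with Srsf and a digit, Hnrnp, Sf3a or Sf3b and a digit, Snrp, or Lsm and a digit, without pseudogenes, and whose counts sum to 40 or more over the 4 libraries. Of the 25759 gene symbols in the table, 65 had such a name and 64 met the count. They are 10 SR proteins, 20 heterogeneous nuclear ribonucleoproteins (hnRNPs), 9 subunits of splicing factor SF3, 12 Sm and other snRNP proteins and 13 Sm-like (LSm) proteins. The gene left out was Srsf12, with a summed count of 14, and the member with the fewest counts was Lsm11, with 354. All 64 members passed the filter on low counts. RNA was sequenced from alveolar epithelial type II cells, the cells that make surfactant, of C57BL/6 mice at 14 weeks. The mTOR Tg group had 2 libraries from mice whose genotype is labelled Sftpc-mTOR transgenic and which the series describes as conditionally transgenic for active mTOR. The WT group had 2 libraries from wild-type mice of the same strain and age. Sftpc is the surfactant protein C gene of type II cells. The mutation in the transgene, any inducing agent, the sex of the mice, the isolation of the cells and any pooling of mice remain not given in the sources used here.

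mTOR is the kinase that couples nutrients and growth factors to protein synthesis and growth. Splicing removes introns on the spliceosome, which assembles from snRNPs. A ring of Sm proteins encircles the RNA of the U1, U2, U4 and U5 snRNPs, and a ring of LSm proteins holds the end of U6. SF3a and SF3b belong to the U2 snRNP and anchor it at the branch site of the intron. SR proteins, which carry arginine-serine repeats, mostly promote the inclusion of exons, and hnRNPs often oppose them. Many SR and hnRNP genes limit their own output through alternative exons whose inclusion sends the transcript to nonsense-mediated decay. The deposited values are counts per gene, so such isoforms were not separated here.

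Library totals were 21972124 and 20273396 counts in mTOR Tg replicates 1 and 2, and 18146693 and 19018785 counts in WT replicates 1 and 2. The 64 members together took 0.624% and 0.656% of counts in mTOR Tg and 0.669% and 0.697% in WT. These are shares of raw counts. On library sizes scaled by edgeR's TMM method, the members summed to 6730 and 6369 CPM in mTOR Tg. Their sums in WT were 6668 and 6695 CPM, so the genotypes overlapped. Summed over 12 markers of type II cells (Sftpc, Sftpb, Abca3, Lamp3 and others, all 12 counted in these libraries), the level was 120377 and 159265 CPM in mTOR Tg and 150697 and 128600 CPM in WT. CPM are a gene's counts scaled to a common library total. The 8 club cell markers, led by Scgb1a1, summed to 160747 and 55599 CPM in mTOR Tg and 83740 and 89872 CPM in WT. The 11 ciliated cell markers summed to 2670 and 1338 CPM in mTOR Tg and 1249 and 1479 CPM in WT. Among 10 leukocyte genes, Cd3e, C1qb, Adgre1 and Ncr1 had no count in any library, and the 10 summed to 3.25 to 7.37 CPM. Most of that sum was Csf1r, at 7.37 and 3.50 CPM in mTOR Tg and 3.25 and 4.26 CPM in WT. The 8 endothelial markers summed to 94.03 and 102 CPM in mTOR Tg and 157 and 162 CPM in WT. The 8 alveolar type I markers summed to 1986 and 1722 CPM in mTOR Tg and 1609 and 1550 CPM in WT. The genotypes did not overlap in either sum. Most of the type I sum was Ager, at 1237 and 1130 CPM in mTOR Tg and 1012 and 935 CPM in WT. Rtkn2 and Cav1 were also above both WT libraries, while Hopx, Pdpn, Aqp5, Akap5 and Clic5 overlapped between genotypes. Among the endothelial markers, Eng and Vwf overlapped. The 5 erythroid markers summed to 3235 and 1041 CPM in mTOR Tg and 2548 and 3683 CPM in WT. mTOR Tg replicate 1 was unlike the other 3 libraries. By these sums it held the most club and ciliated cell transcripts and the fewest type II transcripts. Single markers went the other way: Sftpd lay above both WT libraries, Sftpc above WT replicate 2, and Cckar below both WT libraries. Ccdc39 and Dnah5 were lowest in mTOR Tg replicate 1, and the remaining markers of these lists went with their sums. In this library short transcripts were high and long ones low. Replicate 1 differed from each other library by over 1.5-fold in 12 or 13 of the 64 members, where 35.4% to 37.2% of all tested genes did. Among the other 3 libraries at most 1 member differed by that much, where 6.30% to 9.51% of all tested genes did. In each pair the share of members was thus below that of all tested genes. The members had 61 to 10361 counts in a library, while genes were tested from a minimum count of 10. The part of count depth in this difference was not tested. mTOR Tg replicate 2 had the lowest club and erythroid sums and the highest type II sum. The part of cell makeup and of RNA or library quality in the values below was not tested. In bulk RNA, fewer cells of a type and less RNA per cell cannot be told apart.

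The promoters of 7 members are shown because these genes had some of the smallest p-values among the members or some of the highest levels in their class. Each stretch runs from 150 bases before the RefSeq start of the gene to its first 20 bases, on GRCm38.p6. It is written in the direction of transcription, and capitals mark the motifs found. RefSeq starts can differ from the GENCODE bounds given below. For Srsf3 the GENCODE gene begins at 29032628, upstream of the marked TATA box.
Srsf3, chr17:29032510-29032679, plus strand: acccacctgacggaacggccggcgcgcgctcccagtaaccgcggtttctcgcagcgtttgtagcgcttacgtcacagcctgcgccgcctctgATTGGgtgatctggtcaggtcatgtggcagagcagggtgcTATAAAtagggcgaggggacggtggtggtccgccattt
Srsf7, chr17:80207286-80207455, minus strand: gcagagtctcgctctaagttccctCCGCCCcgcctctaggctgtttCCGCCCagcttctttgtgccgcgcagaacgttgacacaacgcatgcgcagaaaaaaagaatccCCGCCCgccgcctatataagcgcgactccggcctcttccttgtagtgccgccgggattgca
Srsf11, chr3:158036587-158036756, minus strand: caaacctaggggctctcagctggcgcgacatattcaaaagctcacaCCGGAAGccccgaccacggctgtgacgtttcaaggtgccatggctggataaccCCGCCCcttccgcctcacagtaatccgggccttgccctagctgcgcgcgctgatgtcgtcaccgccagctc
Lsm2, chr17:34981704-34981873, plus strand: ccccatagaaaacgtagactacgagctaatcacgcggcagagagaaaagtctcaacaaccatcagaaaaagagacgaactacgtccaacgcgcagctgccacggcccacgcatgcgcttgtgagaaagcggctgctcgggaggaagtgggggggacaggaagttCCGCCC
Lsm10, chr4:126096503-126096672, plus strand: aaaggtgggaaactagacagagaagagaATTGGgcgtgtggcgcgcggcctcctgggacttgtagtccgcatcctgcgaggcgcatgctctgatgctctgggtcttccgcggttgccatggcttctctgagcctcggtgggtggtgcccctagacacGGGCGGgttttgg
Snrpa, chr7:27196252-27196421, minus strand: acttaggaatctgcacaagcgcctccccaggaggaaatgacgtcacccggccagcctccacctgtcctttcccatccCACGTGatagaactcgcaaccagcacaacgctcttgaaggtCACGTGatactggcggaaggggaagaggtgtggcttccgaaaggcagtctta
Sf3b2, chr19:5295438-5295607, minus strand: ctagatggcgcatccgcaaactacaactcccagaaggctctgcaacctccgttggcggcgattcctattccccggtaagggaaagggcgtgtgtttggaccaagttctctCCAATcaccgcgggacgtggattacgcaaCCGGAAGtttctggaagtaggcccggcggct
Motifs were searched on both strands as exact letters. The TATA box was searched as TATAAA, the GC box as GGGCGG, the E box as CACGTG, a site of ETS factors as CCGGAAG, and the CCAAT box by the letters of its name. Each motif was searched on its own, and a GC box can share end bases with another GC box, a CCAAT box or an ETS site, in which case both were taken. A match is a description of the letters and not a site of binding. The Srsf3 stretch held a CCAAT box and a TATA box, the Srsf7 stretch 3 GC boxes, the Srsf11 stretch an ETS site and a GC box, and the Snrpa stretch 2 E boxes. Lsm2 held a GC box, Lsm10 a CCAAT box and a GC box, and Sf3b2 a CCAAT box and an ETS site. Over the full windows of 300 bases, which were available for 55 of the 64 members, the ETS letters were in 17 of 55 members, 30.9%, against 1834 of 10202 tested genes with a promoter, 17.98%. They were in 6 of 7 SF3 subunits and in 2 of 18 hnRNPs. The other classes held them in 4 of 10 SR, 4 of 10 Sm and snRNP and 1 of 10 LSm promoters. CCAAT boxes were in 27 of 55 members, 49.1%, against 38.8% of tested genes, with 12 of 18 hnRNPs, 4 of 10 SR, 2 of 7 SF3, 4 of 10 Sm and snRNP and 5 of 10 LSm promoters. GC boxes were in 40 of 55 members, 72.7%, against 64.7% of tested genes, with 9 of 10 SR, 9 of 10 LSm, 13 of 18 hnRNP, 4 of 7 SF3 and 5 of 10 Sm and snRNP promoters. The TATA letters were in 6 of 55 members (6.92% of tested genes) and the E box in 5 of 55 (10.1%). These counts were read after the values were known and have no test.

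In mouse build mm10 (GRCm38, GENCODE M21 gene bounds), Srsf3 lies at chromosome 17, 29032628 to 29043373, Srsf7 at chromosome 17, 80200080 to 80207307, Hnrnpr at chromosome 4, 136310942 to 136359447, Sf3b2 at chromosome 19, 5273932 to 5295455, Snrpd2 at chromosome 7, 19149722 to 19153542 and Lsm2 at chromosome 17, 34981862 to 34985891. Several members overlap a counted gene on the opposite strand, among them Srsf2 (Mettl23 and Mfsd11), Hnrnpk (Rmi1), Hnrnpu (Cox20), Sf3a2 (Plekhj1), Sf3b3 (Cog4), Snrpa (BC024978) and Snrpd3 (Gucd1). Whether the counting used strand remains not given in the sources used here. Without strand, reads of a gene and its antisense partner cannot be told apart.

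The design sets type II cells with the mTOR transgene against those without it. None of the 64 splicing genes passed the test: the edgeR quasi-likelihood test called 0 members higher and 0 lower at an adjusted p under 0.05, where the share called over all 13306 tested genes was 0% in each direction. At an unadjusted p under 0.05 there were also 0 members, against 1.54% of tested genes higher and 0.917% lower. limma-voom and DESeq2 each called 0 members. Over all tested genes limma-voom called 0, and DESeq2 called 9 higher and 3 lower. At an unadjusted p under 0.05 each tool had 0 members. Over the 13306 tested genes, limma-voom had 322 at that level and DESeq2 318. The edgeR adjusted p ran from 0.860 to 0.9995 over the members, and this range holds for every member named below. Log2 fold changes of mTOR Tg over WT ran from -0.45 for Hnrnpr to 0.59 for Lsm2, with standard errors of 0.18 to 0.35. Their median was 0.071, beside 0.0087 over all tested genes, and 40 of 64 were positive, beside 50.9% of tested genes. On library size alone, without TMM scaling, the members' median was -0.00075 with 32 of 64 positive. Over all 13306 tested genes the median was then -0.054, with 5796 positive. Without mTOR Tg replicate 1 the members' median was -0.064 with 20 of 64 positive. Over the tested genes that median was -0.0035, with 6547 positive. For 1 gene alone, an exact permutation of these 4 samples could reach a two-sided p of 0.333 at the least.

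In normalised CPM, which is CPM on library sizes scaled by edgeR's TMM method, both mTOR Tg libraries lay below both WT libraries for 17 of the 64 members, 26.6%, where the share over all tested genes was 17%. They lay above both for 12 members, 18.8%, beside 17.6%. Of the 17 that lay below, 6 were SR proteins, 9 hnRNPs and 2 SF3 subunits. Of the 12 that lay above, 1 was an SR protein, 4 were hnRNPs, 3 Sm and snRNP proteins and 4 LSm proteins. The mTOR Tg libraries differed from each other in these genes. mTOR Tg replicate 1 lay above both WT libraries in 38 members and below both in 23, where over all tested genes the shares were 44.7% and 43.5%. mTOR Tg replicate 2 lay above both in 14 members, beside 35.1% of tested genes, and below both in 34, which is 53.1% of members beside 35.5% of tested genes. Levels of single genes below are normalised CPM of replicates 1 and 2 of each genotype.

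**Figure D1:**
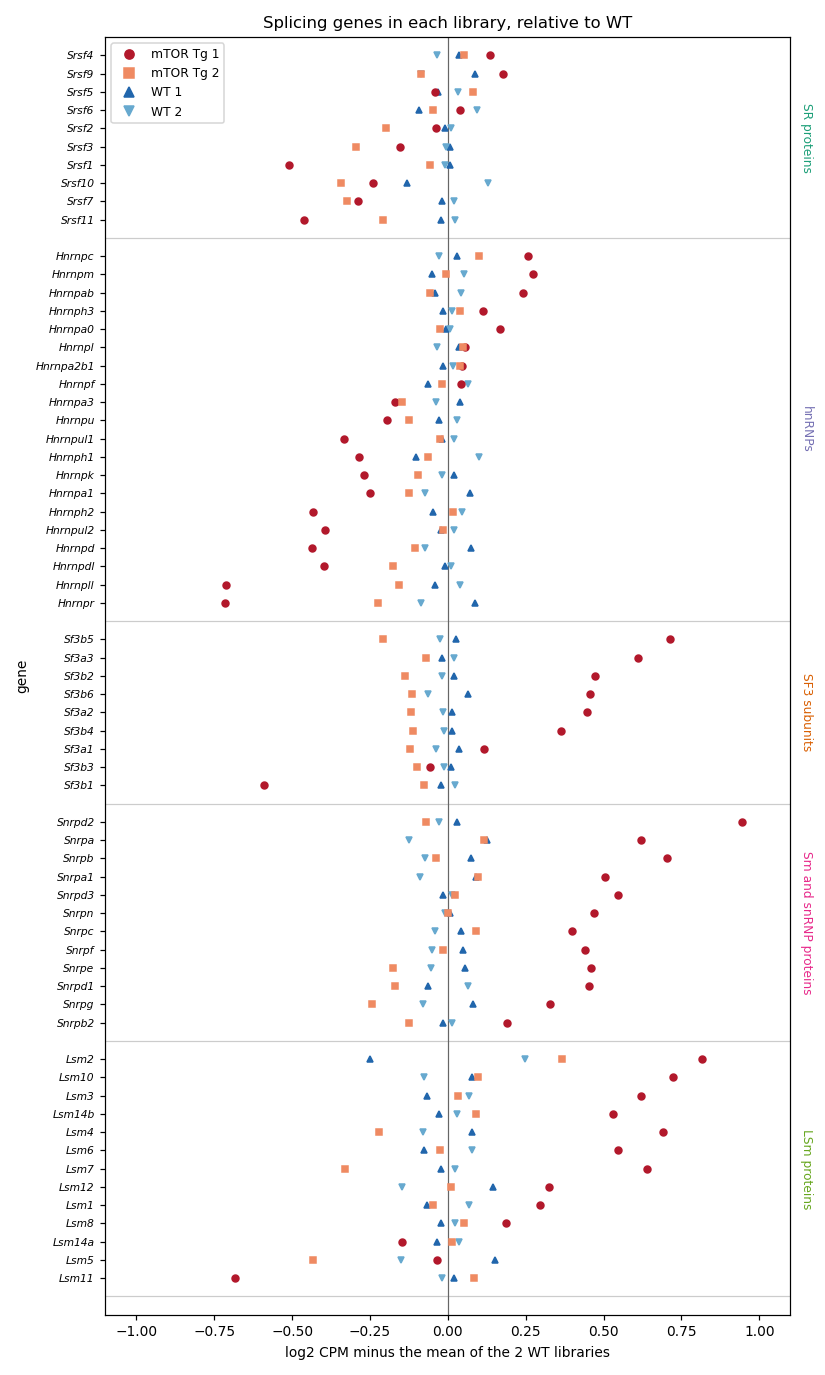
Each row is 1 of the 64 splicing genes, grouped by class and sorted by log2 fold change. The x axis is log2 CPM minus the mean of the 2 WT libraries, with circles and squares for mTOR Tg replicates 1 and 2 and triangles for the WT libraries. The Sm, LSm and SF3 genes of mTOR Tg replicate 1 lie mostly to the right, by up to 0.94 for Snrpd2, while replicate 2 lies close to WT, and several SR and hnRNP genes of both mTOR Tg libraries lie to the left.

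Among the SR proteins, 6 of 10 had both mTOR Tg libraries below both WT libraries (Srsf1, Srsf2, Srsf3, Srsf7, Srsf10 and Srsf11), and Srsf4 had both above. Over all tested genes 17% lay below and 17.6% above. The median log2 fold change of the class was -0.17, with 7 of 10 negative. Srsf7, which binds RNA with the help of a zinc knuckle and serves in mRNA export, had 59.5 and 58.1 CPM in mTOR Tg, against 71.8 and 73.7 CPM in WT. Its mTOR Tg libraries lay close together and stood under both WT libraries, with a log2 fold change of -0.31 (SE 0.18). Srsf3, one of the smallest SR proteins and also an export adaptor, had 152 and 138 CPM in mTOR Tg, against 169 and 168 CPM in WT. The replicates of each genotype lay close together and the genotypes did not overlap (log2 fold change -0.22, SE 0.19). Srsf10, an atypical SR protein that represses splicing when dephosphorylated, had 90.8 and 84.6 CPM in mTOR Tg, against 98.1 and 117 CPM in WT. The WT libraries of Srsf10 were wider apart than its mTOR Tg libraries, and its log2 fold change was -0.30 (SE 0.20). Srsf11 had 49.2 and 58.7 CPM in mTOR Tg, against 66.8 and 68.9 CPM in WT, with mTOR Tg replicate 1 the lowest and a log2 fold change of -0.33 (SE 0.20).

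Srsf2, a nuclear speckle protein that binds exonic enhancers, had 146 and 130.2 CPM in mTOR Tg, against 148 and 150.4 CPM in WT, so that mTOR Tg replicate 1 lay just under the WT libraries. Its log2 fold change was -0.12 (SE 0.19). Srsf1, the prototype of the family, had 102 and 139 CPM in mTOR Tg, against 146 and 144 CPM in WT. For Srsf1 the gap was mostly in mTOR Tg replicate 1, which lay -0.51 from the WT mean in log2 CPM, with replicate 2 at -0.058. Srsf5 was the SR gene with the most CPM, at 241 and 262 CPM in mTOR Tg and 242 and 253 CPM in WT, with the genotypes overlapping (log2 fold change 0.021, SE 0.19). Srsf4, Srsf6 and Srsf9 had log2 fold changes of 0.094, -0.0071 and 0.049, within 1 standard error of 0. Tra2b, an SR-related splicing activator outside the name rule, had 78.1 and 68.8 CPM in mTOR Tg, against 93.1 and 95.5 CPM in WT. Its log2 fold change was -0.36 (SE 0.19), with both mTOR Tg libraries under both WT libraries as in Srsf3 and Srsf7. With the correction for transcript length and GC content described below, the mTOR Tg libraries of Srsf3 and Srsf7 no longer lay together. The corrected value of Tra2b is not given here.

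The hnRNPs held the most abundant members. Hnrnpa3 was highest per length, at 291 in mTOR Tg and 325 in WT, in normalised CPM per kilobase of transcript, followed by Hnrnpa2b1 at 262 in mTOR Tg and 254 in WT. In normalised CPM, Hnrnpa3 had 478 and 486 CPM in mTOR Tg, against 552 and 524 CPM in WT. Both its mTOR Tg libraries lay below both WT libraries, by less than their own standard error (log2 fold change -0.16, SE 0.20). Hnrnpa2b1, which binds and sorts RNAs along with A1, had 429.8 and 428 CPM in mTOR Tg, against 411 and 421 CPM in WT, a spread of under 20 CPM over the 4 libraries (log2 fold change 0.042, SE 0.19). Hnrnpk, which binds C-rich RNA through KH domains, had 294 and 332 CPM in mTOR Tg, against 359 and 349.8 CPM in WT, with mTOR Tg replicate 1 the lowest (log2 fold change -0.18, SE 0.20). Hnrnpa1, the best known antagonist of SR proteins, had 179.96 and 196 CPM in mTOR Tg, against 225 and 204 CPM in WT (log2 fold change -0.19, SE 0.19). For Hnrnpa1 the mTOR Tg libraries again lay below, by a margin that was small for replicate 2.

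Hnrnpr had the lowest log2 fold change of all 64 members, -0.45 (SE 0.24). It had 42.4 and 59.6 CPM in mTOR Tg, against 74.01 and 65.6 CPM in WT, with mTOR Tg replicate 1 far under the other libraries and replicate 2 between it and WT. Hnrnpll, known as the regulator of CD45 exon skipping in T cells, had 31.8 and 46.8 CPM in mTOR Tg, against 50.8 and 53.7 CPM in WT (log2 fold change -0.41, SE 0.25). The leukocyte gene Ptprc, which encodes CD45, had 0 and 3 counts in mTOR Tg and 0 and 3 counts in WT. Hnrnpdl had 73.99 and 86.2 CPM in mTOR Tg, against 96.8 and 98.1 CPM in WT (log2 fold change -0.28, SE 0.19), and its relative Hnrnpd, which binds AU-rich elements and speeds mRNA decay, had 67.1 and 84.6 CPM in mTOR Tg, against 95.6 and 86.4 CPM in WT (log2 fold change -0.26, SE 0.21). For each of these 4 genes mTOR Tg replicate 1 was the lowest library. Hnrnpc, which binds uridine tracts, was the hnRNP with the highest log2 fold change, 0.18 (SE 0.19), at 188 and 168 CPM in mTOR Tg and 160.04 and 154 CPM in WT. Hnrnph3, Hnrnpl and Hnrnpa2b1 also had their mTOR Tg values above the WT values, with log2 fold changes of 0.076, 0.052 and 0.042. Hnrnpu, a chromatin-associated scaffold protein, and Hnrnpul1 lay below, at -0.16 and -0.17. The other 7 hnRNPs (Hnrnpa0, Hnrnpab, Hnrnpf, Hnrnph1, Hnrnph2, Hnrnpm and Hnrnpul2) overlapped between genotypes, with log2 fold changes from -0.19 to 0.14. The class median was -0.17, with 12 of 20 negative. Hnrnpa1 and several other members have near-identical processed copies in the genome, with which reads can be shared.

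**Figure D2:**
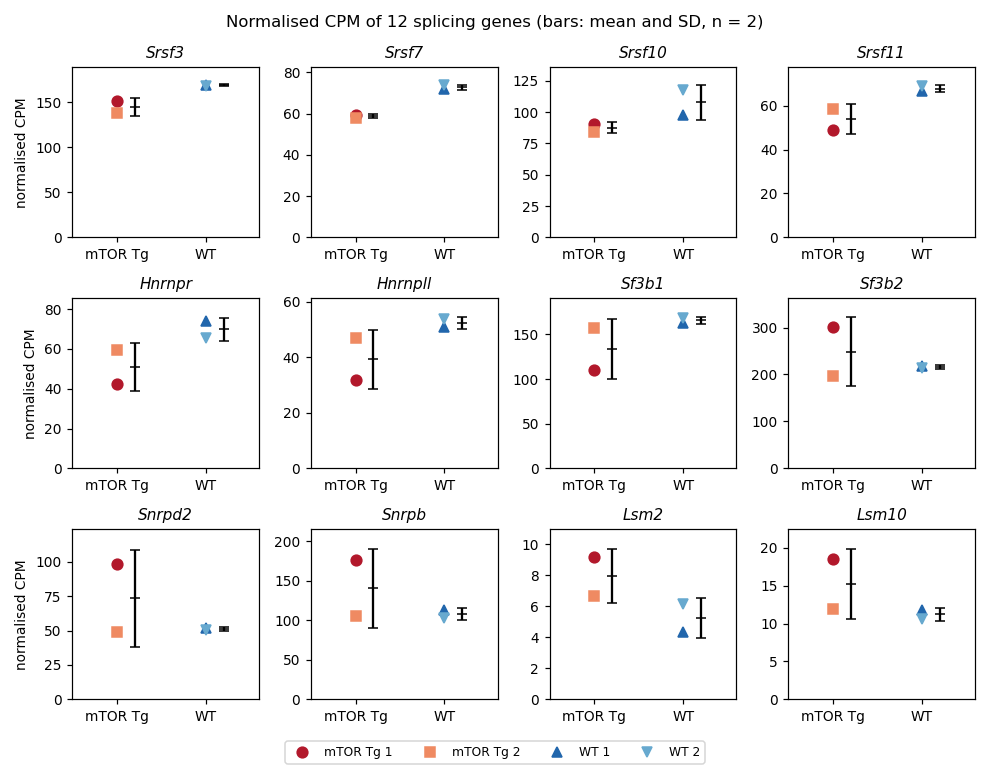
Normalised CPM of 12 splicing genes in the 2 mTOR Tg libraries (circle, replicate 1; square, replicate 2) and the 2 WT libraries (triangles), with each genotype's mean and SD (n = 2) as bars and each y axis starting at 0. The mTOR Tg libraries of Srsf3 and Srsf7 lie together under WT, whereas for Sf3b2, Snrpd2 and Snrpb mTOR Tg replicate 1 stands alone above the other 3 libraries.

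All 9 SF3 subunits lay under both WT libraries in mTOR Tg replicate 2, at -0.069 (Sf3a3) to -0.21 (Sf3b5) in log2 CPM from the WT mean, where 35.5% of tested genes did. In mTOR Tg replicate 1, 7 of the 9 lay above both WT libraries and 2 below, where 44.7% and 43.5% of tested genes did. Sf3b2, which binds the pre-mRNA near the branch site, had 300.2 and 196 CPM in mTOR Tg, against 219 and 213 CPM in WT, a log2 fold change of 0.20 (SE 0.26). The WT libraries lay between the mTOR Tg libraries, so the sign of this value is that of replicate 1. Sf3b1, the scaffold subunit that encloses the branch site, had 110.05 and 157 CPM in mTOR Tg, against 163 and 168 CPM in WT and was low in mTOR Tg replicate 1 (log2 fold change -0.31, SE 0.24). Sf3b3 had 70.1 and 67.99 CPM in mTOR Tg, against 73.5 and 72.3 CPM in WT, with all 4 libraries within 6 CPM (log2 fold change -0.079, SE 0.18). Sf3b5, a small SF3b subunit, had 65.4 and 34.6 CPM in mTOR Tg, against 40.6 and 39.2 CPM in WT (log2 fold change 0.32, SE 0.33), and Sf3a3 had 29.2 and 18.2 CPM in mTOR Tg, against 18.8 and 19.4 CPM in WT (log2 fold change 0.31, SE 0.28). Both repeat the order of Sf3b2, with replicate 1 highest and replicate 2 lowest. Sf3a2, Sf3b4 and Sf3b6 had the same order, with log2 fold changes of 0.19, 0.14 and 0.20, and Sf3a1 was at 0.0016. The class median was 0.19, made of 0.45 in mTOR Tg replicate 1 and -0.12 in replicate 2, relative to WT.

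All 12 Sm and snRNP genes had positive log2 fold changes, from 0.042 for Snrpb2 to 0.52 for Snrpd2, with a class median of 0.25. In all 12 mTOR Tg replicate 1 lay above both WT libraries, where 44.7% of tested genes did. Replicate 2 lay above both in 3 (Snrpa1, Snrpc and Snrpd3) and below both in 5, where 35.1% and 35.5% of tested genes did. Snrpd2, one of the 7 proteins of the Sm ring, had 98.4 and 48.6 CPM in mTOR Tg, against 52.2 and 50.03 CPM in WT. Replicate 1 was far above the other 3 libraries, which lay within 4 CPM, and the log2 fold change was 0.52 (SE 0.35). Snrpb, the most abundant Sm gene here, had 176 and 105 CPM in mTOR Tg, against 113 and 102 CPM in WT (log2 fold change 0.38, SE 0.29). Snrpa, the U1 protein that binds a stem loop of the U1 RNA, had 70.9 and 49.9 CPM in mTOR Tg, against 50.3 and 42.3 CPM in WT, so that replicate 2 lay between the WT libraries, near the higher of them (log2 fold change 0.38, SE 0.25). Snrpd3 had 56.1 and 38.97 CPM in mTOR Tg, against 37.99 and 38.8 CPM in WT (log2 fold change 0.31, SE 0.24). Snrpa1, a protein of the U2 snRNP, had 21.1 and 15.9 CPM in mTOR Tg, against 15.8 and 13.9 CPM in WT (log2 fold change 0.31, SE 0.24). Snrpc of the U1 snRNP was at 24.97 and 20.2 CPM in mTOR Tg and 19.5 and 18.4 CPM in WT. The genotypes of Snrpa1, Snrpc and Snrpd3 did not overlap, but replicate 2 cleared the higher WT library by under 1 CPM in each. Without mTOR Tg replicate 1 the log2 fold change was positive in 5 of the 12 genes, with Snrpd2 at -0.072 and Snrpb at -0.039. It was positive in 10 of 12 after removal of the trends with transcript length and GC content described below, and in 10 of 12 on library size alone, without TMM scaling.

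The other Sm ring genes, Snrpd1, Snrpe, Snrpf and Snrpg, had log2 fold changes of 0.17, 0.18, 0.23 and 0.068. Over the 7 ring genes replicate 1 lay 0.33 to 0.94 above the WT mean in log2 CPM and replicate 2 between -0.24 and 0.02. Snrpn, an imprinted relative of Snrpb best known from neurons, had 20.5 and 14.7 CPM in mTOR Tg, against 14.8 and 14.7 CPM in WT (log2 fold change 0.26, SE 0.25). It lies within the Snurf locus, and Snurf itself is listed at 0 counts in all 4 libraries. Per length, the ring genes differed widely although the ring holds 1 copy of each protein. The levels ran from 15.7 (Snrpd3) to 121 (Snrpb) normalised CPM per kilobase in mTOR Tg and from 12.6 to 92.97 in WT, for the same 2 genes. The order was Snrpb, Snrpe, Snrpd2, Snrpg, Snrpf, Snrpd1 and Snrpd3 by the WT means, and Snrpg and Snrpf overlapped over the WT libraries. These levels rest on the length of the annotated principal transcript, which may be longer than the one these cells use.

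Among the 13 LSm genes, 10 had positive log2 fold changes and the median was 0.24. For Lsm2, Lsm8, Lsm10 and Lsm14b the mTOR Tg values both exceeded the WT values, where 17.6% of tested genes did so. Lsm2, which belongs to both the U6 ring and the cytoplasmic ring for mRNA decay, had 9.17 and 6.70 CPM in mTOR Tg, against 4.34 and 6.17 CPM in WT, from 187 and 140 counts in mTOR Tg and 79 and 122 counts in WT. It had the highest log2 fold change of all members, 0.59 (SE 0.31), and its WT libraries differed by 0.50 in log2 CPM, with replicate 2 the higher. Lsm10, a protein of the U7 snRNP that processes histone mRNA, had 18.5 and 11.97 CPM in mTOR Tg, against 11.8 and 10.6 CPM in WT (log2 fold change 0.44, SE 0.28). Its U7 partner Lsm11 had 2.99 and 5.17 CPM in mTOR Tg, against 4.94 and 4.80 CPM in WT, with mTOR Tg replicate 1 the lowest and a log2 fold change of -0.25 (SE 0.34). Lsm14b had 63.1 and 46.5 CPM in mTOR Tg, against 42.8 and 44.5 CPM in WT (log2 fold change 0.33, SE 0.23), while its paralog Lsm14a, the most abundant LSm gene in CPM and a P-body protein that represses translation, had 83.2 and 93.2 CPM in mTOR Tg, against 89.99 and 94.6 CPM in WT (log2 fold change -0.066, SE 0.19). In Lsm14b replicate 1 stood above the other libraries and in Lsm14a it was the lowest. Lsm4 had 71.2 and 37.8 CPM in mTOR Tg, against 46.6 and 41.7 CPM in WT (log2 fold change 0.30, SE 0.33) and Lsm7 had 35.03 and 17.8 CPM in mTOR Tg, against 22.1 and 22.8 CPM in WT (log2 fold change 0.24, SE 0.35). In both genes replicate 1 was the highest library and replicate 2 the lowest, and without replicate 1 the log2 fold changes were -0.22 and -0.33. Lsm5 was the gene of the rings with a negative value, at 8.05 and 6.08 CPM in mTOR Tg and 9.17 and 7.43 CPM in WT (log2 fold change -0.23, SE 0.27). Lsm1, which replaces Lsm8 in the decay ring, had a log2 fold change of 0.13 (SE 0.24) and Lsm8 of 0.12 (SE 0.21). Lsm3, Lsm6 and Lsm12 were at 0.36, 0.29 and 0.17. Per length, Lsm4 and Lsm7 were the most abundant ring genes, at 58.95 in mTOR Tg and 47.7 in WT and at 56.5 in mTOR Tg and 47.9 in WT, in normalised CPM per kilobase, and Lsm1 the least, at 3.80 in mTOR Tg and 3.46 in WT.

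**Figure D3:**
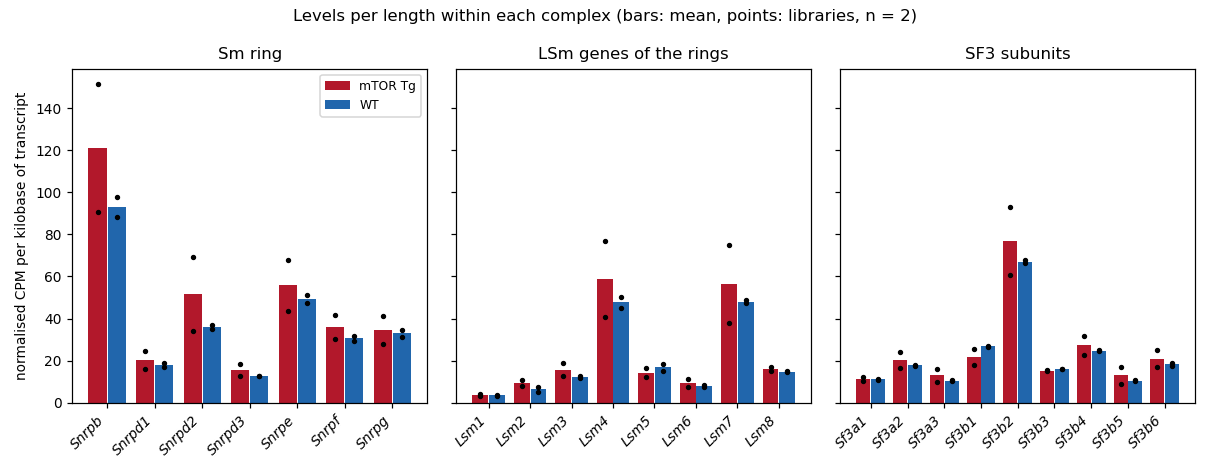
Normalised CPM per kilobase of transcript for the 7 Sm ring genes, the 8 LSm genes of the U6 and decay rings and the 9 SF3 subunits, with mTOR Tg bars left of WT bars (means, n = 2) and points for single libraries. Snrpb, Lsm4, Lsm7 and Sf3b2 stand above their partners in both genotypes, and the mTOR Tg points lie farther apart than the WT points for most genes.

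Set side by side, the classes differed in mTOR Tg replicate 1 more than in replicate 2. The class medians relative to WT, in log2 CPM, were -0.097 in mTOR Tg replicate 1 and -0.14 in replicate 2 for SR proteins, -0.22 in mTOR Tg replicate 1 and -0.043 in replicate 2 for hnRNPs, 0.45 in mTOR Tg replicate 1 and -0.12 in replicate 2 for SF3 subunits, 0.47 in mTOR Tg replicate 1 and -0.027 in replicate 2 for Sm and snRNP proteins, and 0.53 in mTOR Tg replicate 1 and 0.014 in replicate 2 for LSm proteins. The WT libraries differed by -0.091 (Sm and snRNP proteins) to 0.047 (LSm proteins) in the same medians, replicate 2 minus replicate 1. For SR proteins both mTOR Tg medians lay below 0, and for the Sm, LSm and SF3 classes replicate 1 was high and replicate 2 near or under WT. Transcript length differs between the classes, with a median of 943 bases for LSm genes, 1204 for Sm and snRNP genes, 2453 for SR genes, 2587 for hnRNPs and 3222 for SF3 subunits. In replicate 1 the 22 members in the shortest quartile of all tested genes lay 0.46 from WT by their median, against 0.43 for all genes of that quartile. The 9 members in the longest quartile lay at -0.44, against -0.53 for all. In the quartiles between them the members lay at 0.12 (22 genes) and 0.038 (11 genes), against 0.14 and -0.11 for all genes. Over the 64 members, which share these libraries, the deviation of replicate 1 went with log2 length at Pearson's r = -0.62 (Spearman's rho = -0.59), and that of replicate 2 at r = -0.03 (rho = -0.11).

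**Figure D4:**
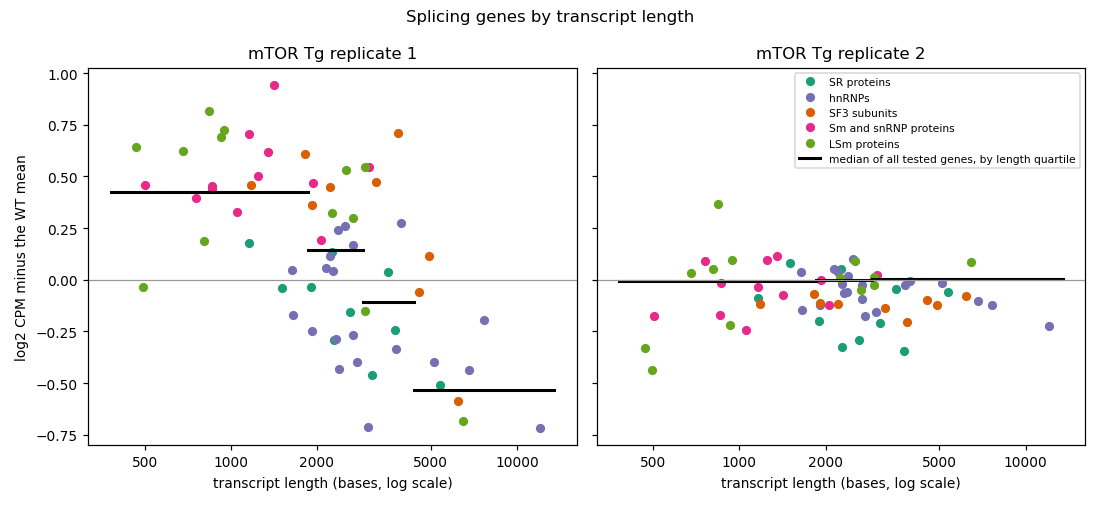
Log2 CPM minus the WT mean against transcript length (log scale) for the 64 splicing genes, coloured by class, in mTOR Tg replicates 1 and 2, with black lines for the median of all tested genes in each length quartile. In replicate 1 the black lines fall from 0.43 in the shortest to -0.53 in the longest quartile. The medians of the splicing genes there are 0.46 and -0.44. In the third quartile the splicing genes lie above the line, at 0.038 against -0.11. In replicate 2 both lie near 0.

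When the trends of each library with transcript length and GC content were removed from the counts, the class medians in mTOR Tg replicates 1 and 2 became 0.0064 and -0.15 for SR proteins, 0.011 and -0.040 for hnRNPs, 0.34 and -0.12 for SF3 subunits, 0.31 and -0.024 for Sm and snRNP proteins and 0.14 and 0.030 for LSm proteins. The high position of the SF3 and Sm classes in replicate 1 was thus smaller but still present, that of the LSm class was much smaller, and the low position of hnRNPs in replicate 1 was gone. The number of members with both mTOR Tg libraries below both WT libraries was 10 with this correction, against 17 without it, and the number above was 9, against 12. The shares over all tested genes with the correction are not given here, so whether these counts differ from them is not known. Corrected log2 fold changes were -0.11 for Srsf7, 0.017 for Srsf3, 0.27 for Snrpd2, 0.28 for Lsm2 and 0.077 for Hnrnpr, so that Srsf3 and Hnrnpr changed sign. In all, 20 of the 64 members changed sign, 10 to positive and 10 to negative. Besides these 2 genes, Srsf1 at 0.14, Srsf10 at 0.017, Srsf6 at 0.24, Hnrnpd at 0.20, Hnrnpu at 0.41, Sf3b1 at 0.091, Sf3b3 at 0.10 and Lsm14a at 0.040 became positive, and Srsf4 at -0.083, Srsf9 at -0.25, Hnrnpa0 at -0.046, Hnrnpl at -0.079, Sf3a2 at -0.075, Sf3b4 at -0.085, Snrpc at -0.051, Snrpg at -0.055, Lsm4 at -0.12 and Lsm7 at -0.13 became negative. Positive values were found in 5 of 10 SR proteins and 9 of 20 hnRNPs with the correction, against 3 and 8 without it. The mTOR Tg libraries of Srsf3 and Srsf7 no longer lay together with the correction. Relative to WT, replicates 1 and 2 were at 0.26 and -0.27 for Srsf3 and at 0.051 and -0.30 for Srsf7.

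**Figure D5:**
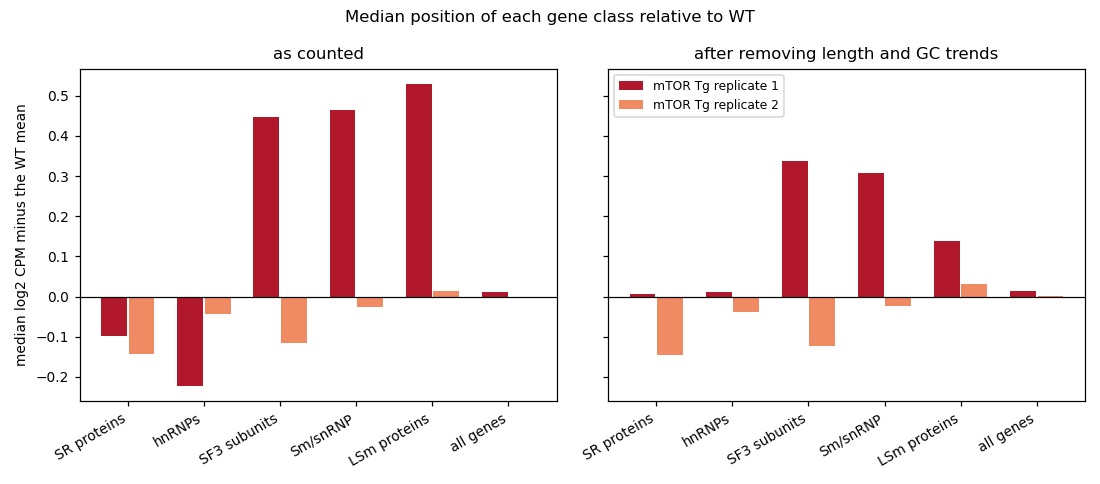
Median log2 CPM minus the WT mean of each class of splicing genes and of all tested genes, for mTOR Tg replicate 1 (dark) and replicate 2 (light), as counted (left) and after removal of length and GC trends (right). The SF3 and Sm classes of replicate 1 stay above 0 on the right, at 0.34 and 0.31, and the SR proteins of replicate 2 stay below, at -0.15.

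Fits with 1 mTOR Tg library left out compare a single library with the WT pair, assume that it varies as WT does and hold no replication of mTOR Tg. Without mTOR Tg replicate 2, edgeR called 23 members higher and 10 lower, 35.9% and 15.6% of members, where the shares over all tested genes were 21.8% and 23.6%. The higher ones were 10 of 12 Sm and snRNP genes, 7 of 13 LSm genes and 6 of 9 SF3 subunits, and the lower ones were 7 of 20 hnRNPs, 2 SR proteins and 1 SF3 subunit. Without mTOR Tg replicate 1, edgeR called 0 members in each direction, where 1.25% of tested genes were called higher and 0.948% lower. The median over the members was 0.17 in the first of these fits and -0.064 in the second, so its sign depends on the library. That of SR proteins was -0.098 and -0.14 in the same order.

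Further lists covered the rest of the splicing pathway, 10 lists in all, and the edgeR test called 0 of their members in either direction, with 0 at an unadjusted p under 0.05. SR-related proteins, such as Son and Srrm2 of nuclear speckles, had 6 of 27 tested members positive and a median log2 fold change of -0.29 (-0.31 and -0.11 relative to WT in mTOR Tg replicates 1 and 2). Both mTOR Tg libraries lay below both WT libraries in 11 of these 27 genes, 40.7%, beside 17% of tested genes. They are long, with a median of 3934 bases, and after the length and GC correction their medians were -0.063 and -0.10. Luc7l2, a U1-associated protein, had 70.99 and 111 CPM in mTOR Tg, against 125 and 133 CPM in WT (log2 fold change -0.50, SE 0.27). The kinases that phosphorylate SR proteins, with their importers, had 6 of 13 tested members positive and a median log2 fold change of -0.046 (-0.13 and 0.0028 relative to WT in mTOR Tg replicates 1 and 2). Prpf4b, a kinase of the spliceosome, had 46.3 and 72.01 CPM in mTOR Tg, against 76.3 and 84.5 CPM in WT (log2 fold change -0.44, SE 0.27), and Dyrk1b had 37.7 and 32.7 CPM in mTOR Tg, against 28.3 and 28.3 CPM in WT (log2 fold change 0.32, SE 0.20).

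Core snRNP proteins named outside the rule, such as Snrnp70, Prpf8 and Eftud2, had 13 of 18 tested members positive and a median log2 fold change of 0.16 (0.28 and -0.019 relative to WT in mTOR Tg replicates 1 and 2). Sart1, which helps bring the tri-snRNP to the spliceosome, had 91.5 and 57.1 CPM in mTOR Tg, against 55.8 and 56.6 CPM in WT (log2 fold change 0.40, SE 0.27), with mTOR Tg replicate 1 far above the rest, and Txnl4a of the U5 snRNP was at 0.33 (SE 0.26). Proteins that act with the U2 snRNP at the branch site had 8 of 14 tested members positive and a median log2 fold change of 0.045 (0.16 and -0.093 relative to WT in mTOR Tg replicates 1 and 2), with the helicase Ddx42 at 63.8 and 73.02 CPM in mTOR Tg, against 85.8 and 84.00 CPM in WT (log2 fold change -0.31, SE 0.19). Proteins of the minor spliceosome had 8 of 11 tested members positive and a median log2 fold change of 0.013 (0.11 and -0.033 relative to WT in mTOR Tg replicates 1 and 2). Among them Snrnp25 had 5.40 and 4.07 CPM in mTOR Tg, against 3.40 and 3.08 CPM in WT (log2 fold change 0.54, SE 0.29) and Zcrb1 was at 0.33 (SE 0.25). The PRP19 complex and the proteins of activation and catalysis had 17 of 30 tested members positive and a median log2 fold change of 0.046 (0.076 and -0.0061 relative to WT in mTOR Tg replicates 1 and 2), with Cwc27 at 7.65 and 7.13 CPM in mTOR Tg, against 9.55 and 10.01 CPM in WT (log2 fold change -0.40, SE 0.23) and Ppil1 at 0.39 (SE 0.25). For Cwc27 the replicates of each genotype lay close and the genotypes did not overlap, without the length and GC correction. Its corrected value is not given here. Factors that load Sm proteins on snRNA, such as Smn1 and Prmt5, had 15 of 25 tested members positive and a median log2 fold change of 0.037 (0.051 and -0.011 relative to WT in mTOR Tg replicates 1 and 2). Clns1a, the chaperone that brings Sm proteins to the PRMT5 complex, had 32.2 and 25.2 CPM in mTOR Tg, against 23.2 and 23.2 CPM in WT (log2 fold change 0.31, SE 0.22), and the PRMT5 cofactor Coprs was at 0.54 (SE 0.35).

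Genes of the exon junction complex, mRNA export and nonsense-mediated decay had 14 of 29 tested members positive and a median log2 fold change of -0.0056 (0.13 and -0.085 relative to WT in mTOR Tg replicates 1 and 2). Thoc6, an export factor of the THO complex, had 13.3 and 9.62 CPM in mTOR Tg, against 7.91 and 7.48 CPM in WT (log2 fold change 0.57, SE 0.26), and the decay factor Upf2 was at -0.38 (SE 0.25). The decapping partners of the LSm decay ring had 3 of 10 tested members positive and a median log2 fold change of -0.19 (-0.44 and -0.031 relative to WT in mTOR Tg replicates 1 and 2). Patl1, which bridges that ring and the decapping enzyme, had 14.8 and 27.9 CPM in mTOR Tg, against 31.95 and 31.8 CPM in WT (log2 fold change -0.58, SE 0.33), and the enzyme Dcp2 was at -0.53 (SE 0.29). This list has the longest transcripts, with a median of 5072 bases, and its corrected medians were -0.10 and -0.041. Other splicing regulators, such as Ptbp1, Mbnl1 and Esrp1, had 14 of 50 tested members positive and a median log2 fold change of -0.12 (-0.19 and -0.032 relative to WT in mTOR Tg replicates 1 and 2). Syncrip, the closest relative of Hnrnpr, had 49.8 and 79.7 CPM in mTOR Tg, against 86.4 and 97.5 CPM in WT (log2 fold change -0.51, SE 0.28), with mTOR Tg replicate 1 the lowest library as for Hnrnpr, and the polyadenylation factor Cpsf6 was at -0.37 (SE 0.21).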

How the data were processed

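The authors deposited raw counts of reads for each gene symbol and library. HISAT2, edgeR and mouse build mm10 are named in the submitters' processing notes; versions, the counting program and its annotation remain not given in the sources used here. RNeasy Mini extraction is given in the labels' protocols.

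For the 4 libraries, edgeR 4.0.16 (R 4.3.3) was run with filterByExpr at a minimum count of 10, keeping 13306 genes, then TMM scaling, and glmQLFit with glmQLFTest for genotype, with Benjamini-Hochberg adjustment over all genes tested and a threshold of 0.05. The standard error is the log2 fold change over the square root of F. Log2 CPM used a prior count of 2. Members and lists were chosen with earlier results of these data known, so they give no independent support. Of the members, the 3 most abundant of each class were named, along with 8 higher and 8 lower ones by smallest p, and of each further list the 2 with the smallest p; 1 gene under this rule is not reported here. Other genes were named after their values were seen. Lengths and GC content are those of the principal coding transcript in GENCODE M21, known for 98.7% of tested genes, and trends were fitted with mgcv 1.9.3. Promoters came from RefSeq (GRCm38.p6) by symbol, for 55 of 64 members, at the most upstream start of a gene. limma 3.58.1 and DESeq2 1.42.0 were alternatives. With 18146693 to 21972124 counts in a library, 3 counts are 0.137 to 0.165 CPM, for counting error only, since reads without molecular identifiers can repeat 1 molecule. That the samples came from separate mice is not in the labels; the p-values then measure only the spread of these samples, which may be technical. The fitting code was tested on simulated counts.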

Additional observations from a re-analysis of the deposited data

How the results depend on the processing

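Over all tested genes, edgeR called 0; DESeq2 called 9 higher and 3 lower, and leaving out 1 library called 10 to 2976 higher and 1 to 3224 lower. Members called were 0 to 23 higher and 0 to 10 lower with 1 library left out, all of them without mTOR Tg replicate 2, and 0 under the other scalings, filters and tools and at a threshold of 0.1. Whether the replicate numbers pair the samples is not known. The correlation of deviations across tested genes was 0.071, which with 2 libraries in each group cannot decide it. With the replicate block edgeR called 22 genes higher and 15 lower, and with the block and the length and GC correction 0 and 1, none of them a member. Members with the mTOR Tg values wholly above WT numbered 14 to 38, and below 18 to 34, with 1 library left out. Such separation is more common with fewer libraries. Over all tested genes mTOR Tg replicate 1 alone lay above both WT libraries in 44.7% and below in 43.5%. Replicate 2 alone did so in 35.1% and 35.5%. After the length and GC correction 10 members lay below. The shares over all tested genes for that correction, or with a WT library left out, are not given here. Lsm11, with 61 to 108 counts a library, is the member that depth limits most.

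With 1 library left out, calls in each list were most numerous without mTOR Tg replicate 2, where 21.8% of all tested genes were called higher and 23.6% lower. From 0 in every list, they then reached, in both directions together, 2 of 10 SR proteins, 7 of 20 hnRNPs, 7 of 9 SF3 subunits, 10 of 12 Sm and snRNP proteins, 7 of 13 LSm proteins, 6 of 13 SR kinases, 16 of 27 SR-related, 11 of 18 core snRNP, 10 of 14 branch site, 5 of 11 minor spliceosome, 9 of 30 PRP19, 7 of 25 Sm assembly, 12 of 29 exon junction, 5 of 10 decapping and 22 of 50 other regulators. Library size alone gave medians of -0.24 for SR proteins, -0.019 for the PRP19 list and -0.025 for Sm assembly, and it lowered the median of all genes to -0.054. With 1 library left out the median ran from -0.17 to -0.098 for SR proteins, -0.32 to -0.11 for SR-related proteins, -0.038 to 0.083 for PRP19 and -0.011 to 0.097 for Sm assembly. After the length and GC correction, without and with the block, the medians were -0.033 and -0.049 for SR proteins, -0.016 and -0.016 for hnRNPs, 0.054 and 0.058 for SR kinases, -0.064 and -0.079 for SR-related proteins and 0.020 and 0.031 for other regulators. The cause of these shifts was not tested.

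Of the 64 members, 8 changed sign on library size alone, all to negative, and 20 after the length and GC correction. Among the members named by the rule these were, on library size alone, Srsf5 -0.039, Hnrnpa2b1 -0.020; after the length and GC correction, Srsf3 0.017, Sf3b1 0.091, Sf3b3 0.10, Lsm14a 0.040, Lsm4 -0.12, Hnrnpr 0.077, Srsf10 0.017, Hnrnpd 0.20; and with the block as well, Sf3b1 0.084, Sf3b3 0.093, Lsm14a 0.040, Lsm4 -0.13, Hnrnpr 0.065, Hnrnpd 0.18. Leaving out each library in turn, log2 fold changes ran from -0.041 to 0.081 for Srsf5, -0.14 to 0.47 for Sf3b2, -0.039 to 0.70 for Snrpb, -0.072 to 0.94 for Snrpd2, -0.15 to 0.013 for Lsm14a, -0.22 to 0.69 for Lsm4.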
